A study of Rattus norvegicus with 19 samples.

Results

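The genes described here are 9 that encode enzymes of the tricarboxylic acid (TCA) cycle: Cs, Idh3a, Idh3b, Idh3g, Ogdh, Dlst, Suclg1, Sdha and Mdh2. Their probes were taken by name, as the non-control probes whose gene name in the scanner files was 1 of the 9. Of the 9 names, 8 matched exactly, and the probe of Idh3b, spelled Idh3B in the files, was matched through its transcript accession. This gave 12 probes, 2 for Ogdh, 3 for Dlst and 1 for each other gene, and all 12 passed the filter on dim probes, so that the 9 genes are 9 of the 24217 tested. Renal cortex was taken from 19 male rats of the Crl:CD (SD) stock. The 5 Sham rats were given vehicle intravenously and then normal feed. In the 7 DKD (diabetic kidney disease) rats, diabetes was induced with a single intravenous dose of 65 mg/kg streptozotocin, which destroys the insulin-producing beta cells, 7 days before the rats were grouped, and normal feed followed. The 7 DKD+enarodustat rats had the same streptozotocin dose and then ate feed holding 0.01% (w/w) enarodustat, an inhibitor of the prolyl hydroxylases through which hypoxia-inducible factor (HIF) is broken down. All kidneys were collected 14 days after grouping. The diabetic rats were picked from 19 injected animals so that blood glucose and body weight matched between the diabetic groups, the labels give no age, and no group received enarodustat without streptozotocin.

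The TCA cycle runs in the mitochondrial matrix, where it oxidises the acetyl group of acetyl-CoA to carbon dioxide and passes the electrons to the respiratory chain. Its intermediates are also withdrawn for glucose, amino acid and lipid synthesis and are refilled from pyruvate and amino acids. The proximal tubule, which makes up most of the renal cortex, is rich in mitochondria and covers its energy need mainly by oxidation. HIF is known to limit the entry of pyruvate into the cycle through kinases that switch off pyruvate dehydrogenase.

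The level of each gene was read by a 60-base probe, and the sequences of the probes that carry the differences described below are shown with their position in the rat build rn4 of the file headers. For Idh3a, the gene that fell in both comparisons of the drug-treated group, and for Idh3g, which codes for a partner subunit and did not, the first 30 bases are given. The probes of Mdh2, which fell against Sham, and of Idh3b and Sdha, which did not pass, are given whole. The 184 bases that the Idh3b probe covers in the genome exceed its length, so its bases are not contiguous there.
Idh3a, chr8:58155604-58155663, plus strand, bases 1 to 30: agacttaattgcagaggtggggtttactca
Idh3g, chrX:159701384-159701443, minus strand, bases 1 to 30: tgcagtttgctcagtttgtctgtaggactc
Mdh2, chr12:22025592-22025651, minus strand: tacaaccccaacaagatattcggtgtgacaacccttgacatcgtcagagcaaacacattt
Idh3b, chr3:117893568-117893751, minus strand: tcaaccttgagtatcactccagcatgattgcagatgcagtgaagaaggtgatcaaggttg
Sdha, chr1:29763988-29764047, plus strand: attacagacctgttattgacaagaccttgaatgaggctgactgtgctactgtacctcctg
In the RefSeq annotation of the later build GRCr8, the protein-coding gene Idh3a spans 63867882 to 63887223 of chromosome 8 and Mdh2 spans 26530886 to 26543841 of chromosome 12. The exon or untranslated region in which each probe lies was not analysed here.

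One single-colour array was hybridised per rat, and 54.4% to 67.3% of the probes on an array were well above background. The 12 probes of the 9 genes were well above background on all 19 arrays and saturated on none. The arrays lay on 3 slides, each with all groups. The row on the slide went with the group: the Sham arrays were all in row 1, the DKD+enarodustat arrays all in row 2, and the DKD arrays in row 1 except replicates 2 and 4. Arrays of row 2 had fewer probes above background, 58.3% on average against 64.9% in row 1. All 12 proximal tubule markers, the check on the tissue label, were above background on every array, but 6 of them fell and 2 rose in DKD against Sham. Of all genes 8.88% fell and 8.13% rose there. In DKD+enarodustat against Sham 8 of the 12 fell and 2 rose, where 15.8% of all genes fell and 10.2% rose. Summed levels of markers are given as the log2 of the sum of linear levels, in which the brightest markers weigh most. For the 12 proximal tubule markers this was 8.74 to 8.88 in Sham, 8.41 to 8.59 in DKD and 8.31 to 8.65 in DKD+enarodustat. Of 6 thick ascending limb markers 4 fell in DKD. The summed level of 8 leukocyte markers went from 4.26 to 4.61 in Sham to 4.64 to 5.35 in DKD and 4.76 to 5.83 in DKD+enarodustat. That of 6 adipocyte markers went from -1.22 to -0.47, to -0.44 to 3.89 and to -0.40 to 2.63. In DKD against Sham 2 of the 8 leukocyte markers rose and 0 fell, with differences from -0.44 to 0.83. Of the 6 adipocyte markers 3 rose and 0 fell there. For 8 collecting duct markers the sum was 5.31 to 5.64, 5.73 to 6.02 and 5.715 to 6.19 in the 3 groups (2 rose and 1 fell in DKD). For 6 podocyte markers it was 3.552 to 3.816, 3.081 to 3.511 and 2.91 to 3.548 (0 rose and 2 fell in DKD). None of the 12 proximal tubule markers passed between DKD+enarodustat and DKD, where 2.11% of all genes were called. The part of these markers in the differences below was not tested. In bulk tissue, fewer cells of a type and less RNA per cell cannot be told apart.

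Streptozotocin diabetes alone was compared with Sham to ask what it changed in the cortex. For the 9 TCA cycle genes 0 rose and 0 fell at an adjusted p of 0.05 in limma, while 17% of all genes passed (8.13% higher and 8.88% lower). The 9 differences, all on the log2 scale, ranged from -0.16 for Idh3a to 0.10 for Suclg1, 3 above 0 and 6 below (52.7% of all genes lay below), with a median of -0.036 against -0.017 for all genes tested. Cs, at -0.13, was the 1 gene at an unadjusted p under 0.05, which 28.8% of all genes reached. Under other normalisations Cs and Idh3g, both lower, were called: this was 2 of 9 with normexp background correction and quantile normalisation (18.9% of all genes, 12.2% lower), with quantile normalisation alone (17.4%, 10.8% lower) and in the authors' value table (31.5%, 19.5% lower).

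Enarodustat was compared with no drug among diabetic rats to ask what it changed there. All 9 genes were lower in DKD+enarodustat, by small amounts, as were 55.7% of all genes. The median of the 9 differences was -0.13 against -0.023 for all genes. Only Idh3a, the gene of the catalytic subunit of isocitrate dehydrogenase 3, fell past the threshold, where 2.11% of all genes were called, 1.09% higher and 1.02% lower. Idh3b, Ogdh, Dlst and Mdh2 differed by -0.17, -0.17, -0.13 and -0.19 at an unadjusted p under 0.05, as did Idh3a (5 of 9, against 9.15% of all genes lower at that level), and, unlike Idh3a, did not pass the adjusted threshold. With the slide row in the fit 0 of 9 were called, where 0.318% of all genes were, and 3 of 9 (Idh3a, Ogdh and Dlst) fell in the authors' value table, where 9.67% were called and 6.36% lower.

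Against Sham, the DKD+enarodustat group combines diabetes and drug, and it shares its arrays with the comparison before and the Sham arrays with the first. Here Idh3a and Mdh2, the gene of mitochondrial malate dehydrogenase, fell. Of all genes 26.1% were called, 10.2% higher and 15.8% lower. The other 7 did not pass. The median of the 9 differences was -0.14 against -0.040 for all genes, and 8 of the 9 lay below 0, as did 55.1% of all genes. The groups did not overlap for Idh3a, Mdh2 and Cs, each lower in DKD+enarodustat, which held for 8.75% of all genes. The count of members called depended on the normalisation. It was 7 of 9 with normexp background correction and quantile normalisation, where 29.9% of all genes were called and 21.3% lower, 8 with quantile normalisation alone (28.2%, 19.8% lower) and 9 in the authors' value table (44.9%, 30.3% lower), all of them lower. With the slide row in the fit it was 0, where 4.35% of all genes were called, and the same term left 13% called in DKD against Sham.

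**Figure D1:**
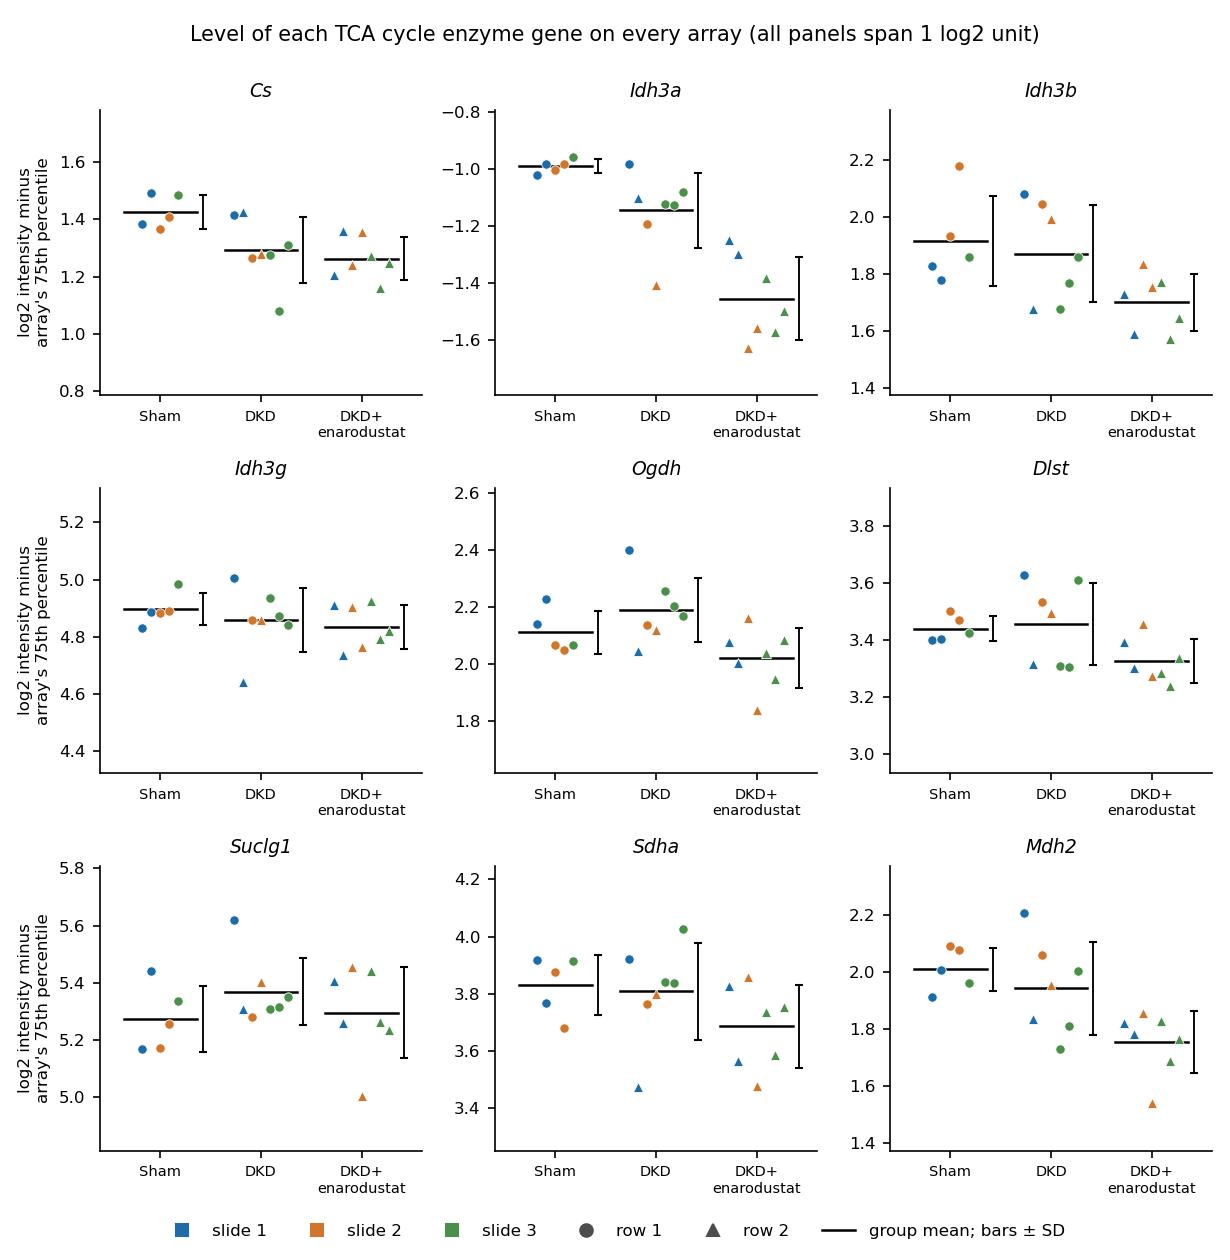
Level of the 9 TCA cycle genes on each of the 19 arrays, as log2 processed intensity minus the array's 75th percentile, by group. Points are arrays, coloured by slide and shaped by slide row, lines are group means and bars are SD; for Idh3a the 5 Sham arrays lie between -1.02 and -0.96, above all 7 DKD+enarodustat arrays at -1.63 to -1.25.

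**Figure D2:**
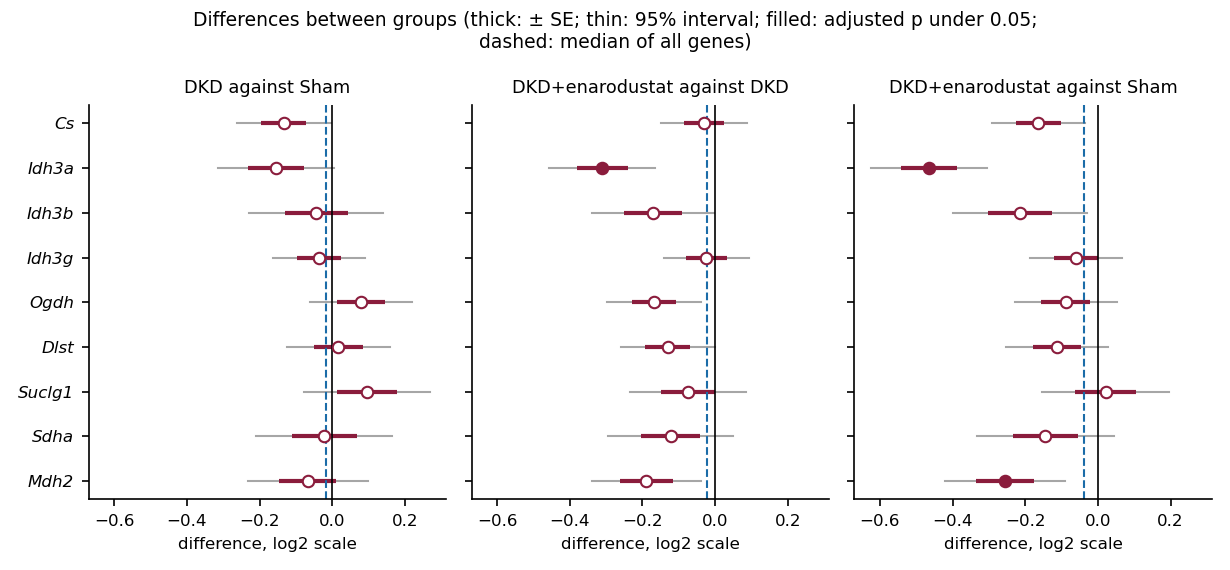
Difference between groups for each of the 9 genes on the log2 scale, with thick bars for the SE of the limma fit and thin bars for the 95% confidence interval. Filled points passed an adjusted p of 0.05: Idh3a at -0.31 against DKD, and Idh3a at -0.47 and Mdh2 at -0.26 against Sham.

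Citrate synthase, the product of Cs, joins acetyl-CoA to oxaloacetate and is the usual marker enzyme of mitochondrial mass. Its level on the 5 Sham arrays was 1.38, 1.49, 1.36, 1.41 and 1.49 for replicates 1 to 5. In DKD it ran from 1.08 to 1.43 with a median of 1.28, and in DKD+enarodustat from 1.16 to 1.36 with a median of 1.25. Thus 5 of the 7 DKD arrays lay below the lowest Sham array, and all 7 DKD+enarodustat arrays did. The difference was -0.13 ± 0.06 between DKD and Sham (SE of the limma fit, n = 7 and 5, adjusted p = 0.157) and -0.16 ± 0.06 between DKD+enarodustat and Sham (adjusted p = 0.0574). The second of these passed with normexp and quantile normalisation, quantile normalisation, median centring, the authors' value table and the filter for all arrays (adjusted p = 0.00382, 0.0119, 0.0398, 0.00201 and 0.0421), and without DKD+enarodustat replicate 2 or 4 (0.0483 and 0.0437). The first passed with normexp and quantile normalisation (-0.17, limma adjusted p = 0.0314) and with quantile normalisation alone (-0.19, adjusted p = 0.0486). It also passed in the authors' value table (-0.13, limma adjusted p = 0.0363). Between DKD+enarodustat and DKD, Cs differed by -0.030 with a 95% confidence interval from -0.15 to 0.087.

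Isocitrate dehydrogenase 3 oxidises isocitrate to 2-oxoglutarate and makes NADH. Idh3a codes for its alpha subunit, which carries the catalytic site, and Idh3b and Idh3g for the beta and gamma subunits, which have a structural and regulatory role. The Sham arrays gave Idh3a levels of -1.023, -0.982, -1.003, -0.981 and -0.958, a narrow range. In DKD the level ran from -1.40 in replicate 4 to -0.98 in replicate 1, with a median of -1.12. In DKD+enarodustat it ran from -1.63 in replicate 3 to -1.25 in replicate 1, with a median of -1.50. All 7 drug-treated arrays lay below the DKD median and 4 of them below the lowest DKD array, so these groups still overlapped, while no drug-treated array reached the lowest Sham array.

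Idh3a fell by 0.31 ± 0.07 on the log2 scale between DKD and DKD+enarodustat, to 0.806 of the DKD level (SE, n = 7 and 7, limma adjusted p = 0.025). Against Sham it fell by 0.47 ± 0.08, to 0.724 of the Sham level (n = 7 and 5, adjusted p = 0.000229), and in DKD against Sham it differed by -0.16 ± 0.08 without passing (adjusted p = 0.191). The call against DKD was lost without DKD replicate 1, 6 or 7 (adjusted p = 0.0532, 0.0555 and 0.0554) or DKD+enarodustat replicate 3 or 7 (adjusted p = 0.0572 and 0.0535). It was also lost without a filter on dim probes and with only the compared groups in the fit (adjusted p = 0.0628 and 0.0885). The call against Sham was kept in 12 of 12 fits that left out 1 array. Within slides 1, 2 and 3 the difference from DKD was -0.23, -0.29 and -0.37, with no call on a single slide, and with slide as a block it was -0.31 (adjusted p = 0.00454). With the slide row in the fit it was -0.20 (adjusted p = 0.631), and the difference from Sham was -0.31 (adjusted p = 0.204). The DKD arrays of row 2 themselves were at -1.10 and -1.40, against -1.19 to -0.98 in row 1, a difference of -0.15 between the row means. Without these row 2 arrays the fall from DKD was 0.35 (limma adjusted p = 0.0136). That fit sets DKD arrays of row 1 only against DKD+enarodustat arrays of row 2 only, so it cannot tell group from row.

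**Figure D3:**
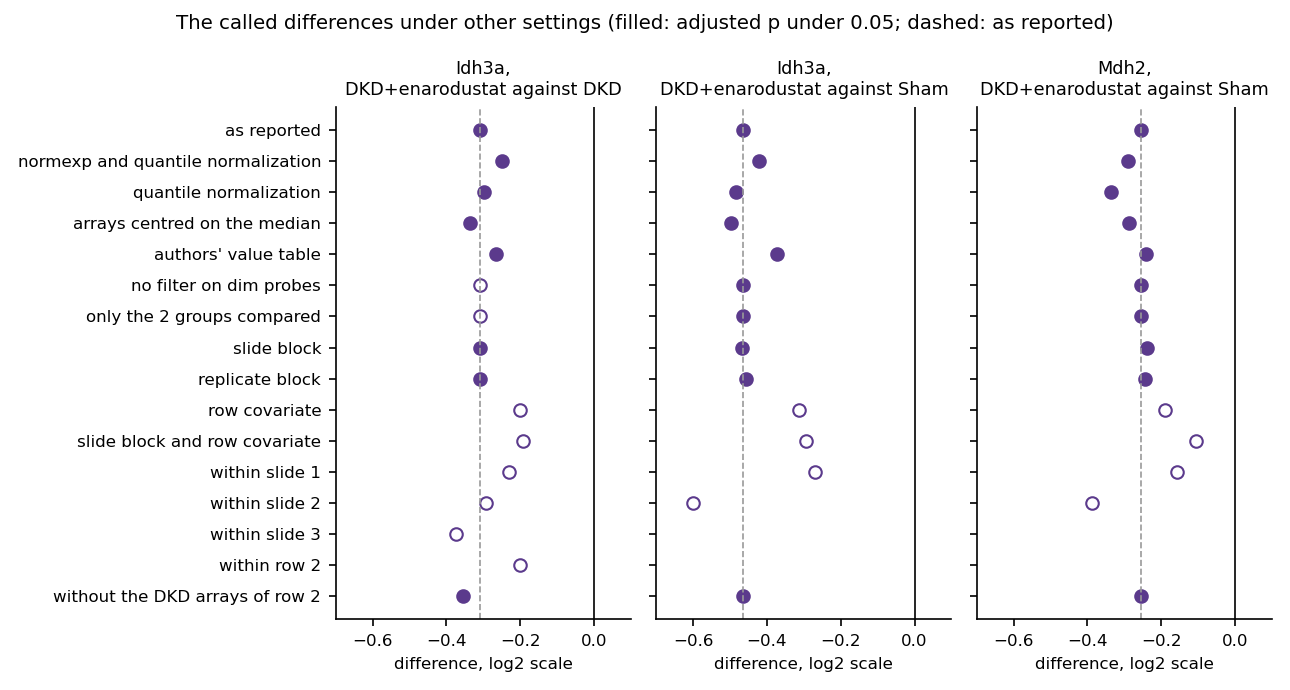
Called differences of Idh3a and Mdh2 on the log2 scale under other settings, 1 row per setting, with filled points where the adjusted p stayed under 0.05 and a dashed line at the value as reported. All values lie below 0, and the points are open with the slide row in the fit, with slide block and row together, within single slides and, for Idh3a against DKD, within row 2, without the filter on dim probes and with only the compared groups.

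The partner subunits passed in no comparison on the scale used here, but both were called against Sham under 3 other normalisations. Idh3b was at 1.83, 1.78, 1.93, 2.18 and 1.86 in Sham, at 1.68 to 2.08 in DKD with a median of 1.86, and at 1.57 to 1.83 in DKD+enarodustat with a median of 1.73. The 3 groups overlapped, although all 7 drug-treated arrays lay below the medians of both other groups. Idh3b differed by -0.17 ± 0.08 from DKD (adjusted p = 0.351) and by -0.21 ± 0.09 from Sham (adjusted p = 0.0813). Idh3g was at 4.83, 4.88, 4.88, 4.89 and 4.99 in Sham, at 4.64 to 5.00 in DKD with a median of 4.86, and at 4.73 to 4.92 in DKD+enarodustat with a median of 4.82. Its groups overlapped throughout. The difference of Idh3g between DKD+enarodustat and DKD was -0.024, with a 95% confidence interval from -0.14 to 0.093. Against Sham it was -0.06 (adjusted p = 0.536), but -0.27 with normexp and quantile normalisation, -0.25 with quantile normalisation alone, and -0.25 in the authors' value table (adjusted p = 0.000597, 0.00282 and 0.000343). Under the same 3 settings Idh3b differed from Sham by -0.25, -0.29 and -0.21 (adjusted p = 0.029, 0.0294 and 0.00511).

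Because the subunits are read on the same array, they were also set against each other within each array, with an exact permutation test over the rats of the groups compared, two-sided, for 3 pairs in 3 comparisons (9 tests, Benjamini-Hochberg adjusted). This test was added after the data had been seen. The differences between groups in these within-array values are given, not the levels of 1 probe against another. Idh3a relative to Idh3g differed by -0.287 between DKD+enarodustat and DKD (exact permutation p = 0.00524, adjusted 0.0236), and by -0.405 between DKD+enarodustat and Sham (exact permutation p = 0.00253, adjusted 0.0228). The other 7 tests did not pass. These differences depended on the normalisation: in the authors' value table, with quantile normalisation and with normexp and quantile normalisation, Idh3a minus Idh3g differed by -0.145, -0.243 and -0.143 from DKD (exact permutation, adjusted 0.063, 0.0603 and 0.343) and by -0.119, -0.234 and -0.149 from Sham (adjusted 0.072, 0.0603 and 0.343), so that neither passed. Since same-numbered arrays share a slide, the test was also run with arrays permuted within slides, where both passed (exact permutation, adjusted 0.0208 and 0.0208). The exact permutation p before adjustment was 0.00278 against DKD (720 arrangements) and 0.00694 against Sham (144 arrangements). Each is the smallest that the number of arrangements allows. Idh3a minus Idh3b against Sham passed within slides too (exact permutation, adjusted 0.0208). So did Idh3b minus Idh3g against DKD and against Sham (exact permutation, adjusted 0.025 and 0.025), so a shift within slides was not particular to Idh3a. Over same-numbered pairs, Idh3a minus Idh3g was lower in 7 of 7 pairs with DKD and in 5 of 5 pairs with Sham. The exact permutation p over pairs was 0.0156 and 0.0625, each the smallest that the number of pairs allows (adjusted 0.112 and 0.112), so neither passed after adjustment. Idh3a relative to Idh3b differed by -0.139 against DKD (exact permutation p = 0.235, adjusted 0.302) and by -0.251 against Sham (exact permutation p = 0.0391, adjusted 0.0704). The DKD arrays of row 2 held both the highest and the lowest of the 7 DKD values of Idh3a minus Idh3g, -5.74 and -6.26, while the DKD+enarodustat values ran from -6.53 to -6.03.

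**Figure D4:**
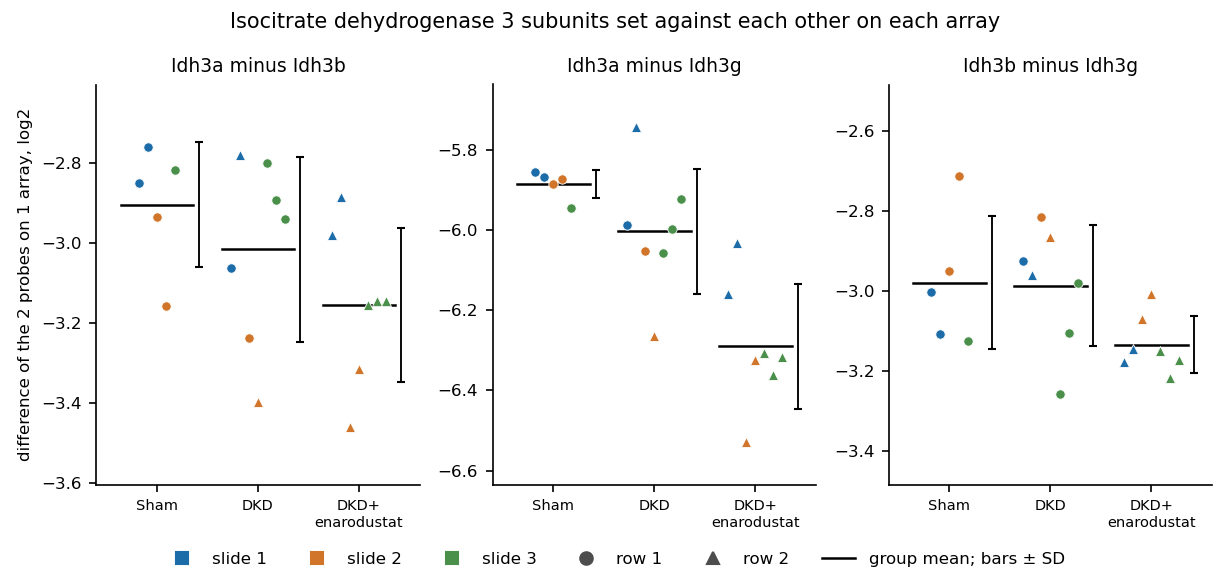
Log2 difference between the probes of 2 isocitrate dehydrogenase 3 subunits on the same array, by group, for the 3 pairs of Idh3a, Idh3b and Idh3g. Points are arrays coloured by slide and shaped by slide row, with group means and SD; for Idh3a minus Idh3g the mean was -5.88 in Sham, -6.00 in DKD and -6.29 in DKD+enarodustat.

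The 2-oxoglutarate dehydrogenase complex converts 2-oxoglutarate to succinyl-CoA. Ogdh codes for its E1 component, which decarboxylates the substrate, and Dlst for the E2 core, which transfers the succinyl group. Ogdh was at 2.14, 2.23, 2.07, 2.05 and 2.07 in Sham, at 2.05 to 2.40 in DKD with a median of 2.17, and at 1.84 to 2.16 in DKD+enarodustat with a median of 2.04. DKD was the highest group by its mean and 4 of the 7 drug-treated arrays lay below every DKD array, but the groups overlapped. Ogdh differed by -0.17 ± 0.06 from DKD (adjusted p = 0.193) and by -0.089 from Sham, with a 95% confidence interval from -0.23 to 0.052. A dimmer probe of Ogdh differed by -0.062 from DKD, with an interval from -0.30 to 0.18 that holds the value of the first.

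Dlst was at 3.40, 3.40, 3.50, 3.47 and 3.42 in Sham, at 3.30 to 3.63 in DKD with a median of 3.49, and at 3.24 to 3.46 in DKD+enarodustat with a median of 3.30. One drug-treated array lay within the Sham range and the other 6 below it, and 4 lay below every DKD array. It differed by -0.13 ± 0.06 from DKD (adjusted p = 0.358) and by -0.11 ± 0.07 from Sham (adjusted p = 0.246). Its other probes gave -0.13 and -0.018 from DKD, and 0.021 and 0.0027 from Sham, none of them past the threshold. One of these probes followed the slide: its mean was 1.52 on slide 2, where its highest array reached 1.62, while the lowest arrays of slides 1 and 3 were at 2.01 and 1.98. The probe that stands for Dlst had means of 3.41, 3.45 and 3.36 on the 3 slides. In the authors' value table Ogdh and Dlst fell by 0.18 and 0.18 against DKD (adjusted p = 0.0406 and 0.0126).

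Succinyl-CoA synthetase makes GTP or ATP from succinyl-CoA, and Suclg1 codes for the alpha subunit that both forms share. It was at 5.17, 5.44, 5.17, 5.26 and 5.33 in Sham, at 5.28 to 5.62 in DKD with a median of 5.32, and at 5.00 to 5.46 in DKD+enarodustat with a median of 5.26. The 3 groups overlapped, with 4 of the 7 drug-treated arrays and 3 of the 5 Sham arrays below every DKD array. The difference was 0.095 ± 0.083 between DKD and Sham (adjusted p = 0.52) and -0.074 ± 0.076 between DKD+enarodustat and DKD (adjusted p = 0.777). Between DKD+enarodustat and Sham it was 0.021, with a 95% confidence interval from -0.15 to 0.20, and the sign was the opposite with normexp and quantile normalisation (-0.15), quantile normalisation (-0.14), median centring (-0.010) and in the authors' value table (-0.14, adjusted p = 0.0349, the 1 call among them). The difference between DKD and Sham turned sign as well under the first, second and last of these settings (-0.088, -0.066 and -0.077).

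Sdha codes for the flavoprotein of succinate dehydrogenase, which oxidises succinate to fumarate and is also complex II of the respiratory chain. Its Sham levels were 3.92, 3.77, 3.88, 3.68 and 3.91. In DKD it ran from 3.47 to 4.03 with a median of 3.84, and in DKD+enarodustat from 3.48 to 3.86 with a median of 3.73. All 7 drug-treated arrays lay below the Sham median and 3 below the lowest Sham array. The difference from Sham was -0.14 ± 0.09 (adjusted p = 0.267) and that from DKD was -0.12 ± 0.08 (adjusted p = 0.577). The former was -0.28 with normexp and quantile normalisation, -0.30 with quantile normalisation alone, and -0.27 in the authors' value table, and passed there (adjusted p = 0.0102, 0.0132 and 0.00576). DKD arrays of row 2 were at a mean of 3.63, 0.24 below the 3.88 of row 1, which is larger than either group difference on the scale used here. These arrays, replicates 2 and 4, were at 3.473 and 3.798. Replicate 4 lay within the row 1 range of 3.762 to 4.025, so the gap came mainly from replicate 2.

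Mdh2 closes the cycle: its product oxidises malate to oxaloacetate and also serves the malate-aspartate shuttle. Levels in Sham were 1.91, 2.01, 2.09, 2.08 and 1.96. In DKD they ran from 1.73 to 2.21 with a median of 1.96, and in DKD+enarodustat from 1.54 in replicate 4 to 1.85 in replicate 3 with a median of 1.78. The DKD range held that of Sham and overlapped that of DKD+enarodustat, of which 2 arrays lay below every DKD array and all 7 below every Sham array. Mdh2 fell by 0.26 ± 0.08 against Sham, to 0.838 of the Sham level (n = 7 and 5, limma adjusted p = 0.0227). It differed by -0.19 ± 0.07 from DKD (adjusted p = 0.224) and by -0.067 between DKD and Sham, with a 95% confidence interval from -0.23 to 0.099. The fall against Sham did not pass without Sham replicate 3 or 4 (adjusted p = 0.0616 and 0.0564). With the slide row in the fit it was -0.19 (adjusted p = 0.537), within slides 1 and 2 it was -0.16 and -0.39 without a call, and with slide as a block it was -0.24 (adjusted p = 0.0297).

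A list of 9 further subunit genes of the cycle was examined, all of which were tested. For this and the lists below, the shares of all genes give the scale. In DKD against Sham 8.13% of all genes rose and 8.88% fell. In DKD+enarodustat 1.09% rose and 1.02% fell against DKD, and 10.2% rose and 15.8% fell against Sham. Of the 9 further genes 1 fell and 0 rose in DKD+enarodustat against DKD, with a median of -0.15. Dld, the shared E3 component of the 2-oxoglutarate and pyruvate dehydrogenase complexes, fell by 0.28 ± 0.07 (adjusted p = 0.0448), a call kept in 2 of 14 fits that each left out 1 array and lost with the slide row in the fit (-0.17, adjusted p = 0.715). With slide as a block Suclg2 was called too, at -0.22 against DKD and -0.17 in DKD against Sham (adjusted p = 0.0277 and 0.0415). It was not the only further gene whose call against DKD depended on the setting. Of 32 alternative settings, 3 called Suclg2, 3 Sucla2, 3 Fh, 2 Sdhd and 1 Sdhc there, each lower. Against Sham 5 fell and 0 rose, with a median of -0.22. These were Dld by 0.40 (adjusted p = 0.000781), Suclg2 and Sucla2, the GTP- and ATP-forming partners of Suclg1, by 0.36 and 0.36 (adjusted p = 0.000778 and 0.00162), Sdhd, a membrane anchor of complex II, by 0.22 (adjusted p = 0.0116), and Ogdhl, a relative of Ogdh, by 0.72 (adjusted p = 0.00346). None of the 5 passed with the slide row in the fit, where 4.35% of all genes were called.

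In DKD against Sham 0 of the 9 rose and 1 fell, with a median of -0.11. Ogdhl, a dim probe, fell by 0.57 ± 0.16 (adjusted p = 0.0222, and 0.0866 with the slide row in the fit). The call of Ogdhl was also lost without Sham replicate 1 or 5 (adjusted p = 0.0619 and 0.0616). Idh2, which makes NADPH from isocitrate, Sdhb, Sdhc and Fh, the gene of fumarase, did not pass in the 3 comparisons on this scale, but calls of 3 of these depended on the setting. Sdhc, at -0.20 against Sham, was called there with slide as a block (-0.23, adjusted p = 0.00208) and with the replicate block (-0.22, adjusted p = 0.0112). Idh2, at -0.20 in DKD against Sham, was called there with quantile normalisation (-0.36, adjusted p = 0.00191). Fh, at 0.17 in DKD against Sham, was called there with the slide row in the fit (0.22, adjusted p = 0.0403).

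**Figure D5:**
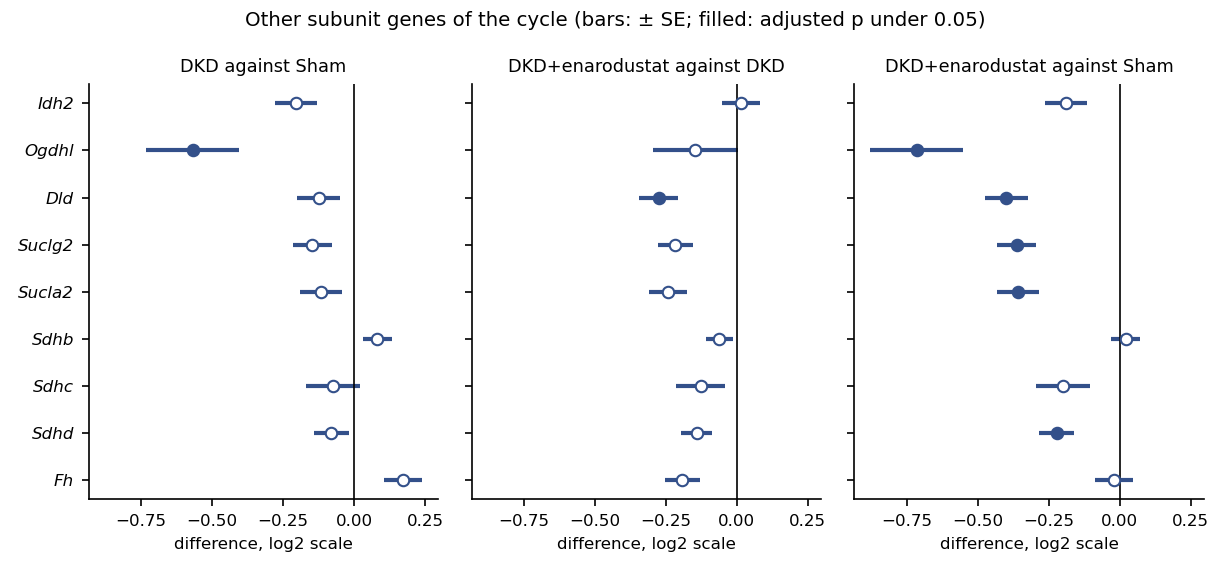
Difference between groups on the log2 scale for 9 other subunit genes of the TCA cycle, with bars for the SE of the limma fit and filled points for an adjusted p under 0.05. Filled points are Ogdhl (-0.57) in DKD against Sham, Dld (-0.28) against DKD, and Ogdhl, Dld, Suclg2, Sucla2 and Sdhd (-0.72 to -0.22) against Sham.

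Among cytosolic enzymes that handle the same metabolites, Aco1, the cytosolic aconitase that doubles as iron regulatory protein, rose by 0.81 ± 0.13 in DKD against Sham (limma adjusted p = 0.000382). Me1, the NADPH-forming malic enzyme, fell by 0.60 ± 0.13 there (limma adjusted p = 0.00451). Neither overlapped between the groups, which held for 4.9% of all genes higher and 5.8% lower. Of the 5 cytosolic genes 1 rose and 1 fell in DKD against Sham (median -0.16), and 0 passed between DKD+enarodustat and DKD (median -0.18). Between DKD+enarodustat and Sham 1 rose and 3 fell (median -0.36). The 3 were Me1, Mdh1, the cytosolic malate dehydrogenase, by 0.36 (adjusted p = 0.00129), and Acly, which splits citrate in the cytosol, by 0.38 (adjusted p = 0.00315). With the slide row in the fit the last comparison gave -0.33 for Mdh1 and -0.32 for Acly without a call.

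Of 14 genes at the entry to and exit from the cycle, 4 rose and 0 fell in DKD against Sham (median 0.041), 0 rose and 1 fell in DKD+enarodustat against DKD (median -0.14), and 3 rose and 3 fell against Sham (median -0.12). The largest rise was that of Gpt2, the mitochondrial alanine aminotransferase that links pyruvate to 2-oxoglutarate, by 1.98 ± 0.36 (adjusted p = 0.00105), and its other probe gave 1.83. The main probe of Gpt2 was dim and spread widely, at -4.62 to -3.07 in Sham and -2.94 to -0.81 in DKD. Pck2, the mitochondrial phosphoenolpyruvate carboxykinase, rose by 0.23 (adjusted p = 0.0375), kept in 3 of 12 fits that left out 1 array. Pdhb, the E1 beta subunit of pyruvate dehydrogenase, fell by 0.31 ± 0.08 against DKD (adjusted p = 0.0446), kept in 4 of 14 such fits. Against Sham, Pdhb fell by 0.45 (adjusted p = 0.000679) and Pc, pyruvate carboxylase, which refills oxaloacetate, by 0.41 (adjusted p = 0.00394), and neither passed with the slide row in the fit (-0.32 and -0.064).

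Among the mitochondrial carriers of cycle intermediates 8 of 10 were tested, of which 1 rose and 2 fell in DKD against Sham (median -0.12), 1 rose and 0 fell against DKD (median -0.065), and 1 rose and 3 fell against Sham (median -0.17). Slc25a13, an aspartate-glutamate carrier, fell by 0.63 ± 0.08 in DKD (adjusted p = 2.76e-05) and rose by 0.29 ± 0.07 with enarodustat (adjusted p = 0.0433), a call kept in 2 of 14 fits that left out 1 array. The latter groups share the DKD arrays with the former. Mpc1, a subunit of the mitochondrial pyruvate carrier, fell by 0.51 ± 0.07 in DKD (adjusted p = 0.000137) and by 0.58 ± 0.07 in DKD+enarodustat against Sham (adjusted p = 2.13e-05), each kept in 12 of 12 such fits, the latter not with the slide row in the fit (-0.43, adjusted p = 0.0618). Slc25a11, the 2-oxoglutarate carrier, fell by 0.27 against Sham (adjusted p = 0.0153) but not without Sham replicate 3 or 4 (adjusted p = 0.0511 and 0.05). Slc25a22, a glutamate carrier, rose by 0.91 in DKD (adjusted p = 3.26e-05), while its other probe gave 0.43 without a call.

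Proteins that assemble the enzymes or supply their iron-sulfur and lipoyl cofactors were measured for 11 of 13 genes. In DKD against Sham 2 rose and 2 fell (median -0.034), in DKD+enarodustat against DKD 0 rose and 1 fell (median -0.13), and against Sham 1 rose and 5 fell (median -0.18). Iscu, the scaffold on which iron-sulfur clusters are built, was at 1.58 to 1.70 in Sham, 1.81 to 2.01 in DKD and 1.58 to 1.84 in DKD+enarodustat. It rose by 0.28 ± 0.06 in DKD (adjusted p = 0.00163) and fell by 0.24 ± 0.05 with enarodustat (adjusted p = 0.0153), the latter in 14 of 14 fits that left out 1 array, though not with the slide row in the fit (-0.25, adjusted p = 0.239) or with arrays centred on their median (adjusted p = 0.0797). Nfs1, the cysteine desulfurase that provides the sulfur, fell by 0.50 ± 0.08 against Sham (adjusted p = 0.000243, and 0.317 with the slide row in the fit), and by 0.26 in DKD (adjusted p = 0.0378, kept in 5 of 12 fits). Iba57 rose by 1.43 and Glrx5 fell by 0.39 in DKD (adjusted p = 0.00313 and 0.042), but the other probe of each gave 0.11 and 0.17 without a call, and the call of Glrx5 was lost with the replicate block (adjusted p = 0.0761).

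Markers of mitochondrial content and biogenesis numbered 15, of which 0 rose and 3 fell in DKD (median -0.046). With enarodustat 0 rose and 1 fell (median -0.15), and against Sham 0 rose and 7 fell (median -0.18). Of all genes 8.88%, 1.02% and 15.8% fell in these comparisons. The medians of the 9 cycle enzymes in the same comparisons were -0.036, -0.13 and -0.14. Tomm20, a receptor of the outer membrane import machinery, fell by 0.24 ± 0.06 with enarodustat (adjusted p = 0.039), kept in 3 of 14 fits, and its other probe gave -0.21. Cycs, cytochrome c, fell by 1.01 ± 0.22 against Sham (adjusted p = 0.00248) and its other probe by 0.855. On the main probe DKD+enarodustat replicate 6 was at 3.249, while the other arrays of that group lay at 4.665 to 5.087. Without 1 array at a time this difference ranged from -1.096 to -0.789, called in 12 of 12 fits. In DKD the main probe of Cycs fell by 0.68 (adjusted p = 0.0426, and 0.0802 with the replicate block). That call was kept in 2 of 12 fits that left out 1 array, and the other probe fell by 0.77 (adjusted p = 6.06e-05). Ppargc1b, a coactivator of mitochondrial biogenesis, fell by 0.43 in DKD and by 0.70 against Sham (adjusted p = 0.0216 and 0.000468), the former not without Sham replicate 1 or 2 (0.07 and 0.0673), and Gabpa, the alpha subunit of nuclear respiratory factor 2, fell by 0.26 against Sham (adjusted p = 0.00512). None of the falls of the main probes of these genes passed with the slide row in the fit.

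Likeness to the members was measured as Pearson's r over the 19 arrays after each slide's mean was subtracted, and it is a description, since the arrays share groups, slides and scaling. The genes most like the mean of the 9 were Dld (r = 0.918), Tomm20 (0.906), Lamtor3 (0.905), Gnpat (0.898) and Ndufb3, a complex I subunit (0.89). Those most like Idh3a were Uqcrc2, a core subunit of complex III (0.953), Memo1 (0.938), Anp32e (0.936), Pdcd6ip (0.936) and Coa5, an assembly factor of complex IV (0.929). Uqcrc2 and Coa5 were themselves lower by 0.31 and 0.39 in DKD+enarodustat than in DKD (limma adjusted p = 0.00239 and 0.00591). Memo1, Anp32e and Pdcd6ip differed there by -0.245, -0.22 and -0.248 (limma adjusted p = 0.0384, 0.0359 and 0.301). Since r was taken with the group differences left in, these values are no separate support for the fall of Idh3a. For Mdh2 the nearest were Atp5f1b, the catalytic subunit of ATP synthase (0.919), Tomm20 (0.914), Gnpat (0.906), Lypla1 (0.906) and Slc25a5, an ADP/ATP carrier (0.899). Among the members, Mdh2 followed Idh3b (0.867) and Dlst (0.858) most closely, Idh3a followed Mdh2 (0.733) and Idh3b (0.717), and Cs followed none above 0.524.

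Since enarodustat acts on HIF, RefSeq promoters of GRCr8 were searched for ACGTG and GCGTG, the core letters of the hypoxia response element. The search covered both strands of a window of 250 bases per gene. This window lay before the annotated start of the gene, except for Idh3b, Ogdh and Dlst. For Idh3b it lay wholly inside the annotated gene, and for Ogdh and Dlst in part. Of the 9 genes 8 had an entry, and 4 of these (Idh3g, Ogdh, Sdha and Mdh2) held the letters, which 36.7% of 33469 promoters also did. The estrogen-related receptor element AAGGTCA was in 0 of the 8 (3.99% of all) and the nuclear respiratory factor 1 core GCGCATGC in 0 of the 8 (2.2%). The windows of Mdh2, which fell against Sham, and Idh3g, which did not pass, both hold the core and are shown with it in capitals, on the strand of the gene.
Mdh2, chr12:26543842-26544091, minus strand: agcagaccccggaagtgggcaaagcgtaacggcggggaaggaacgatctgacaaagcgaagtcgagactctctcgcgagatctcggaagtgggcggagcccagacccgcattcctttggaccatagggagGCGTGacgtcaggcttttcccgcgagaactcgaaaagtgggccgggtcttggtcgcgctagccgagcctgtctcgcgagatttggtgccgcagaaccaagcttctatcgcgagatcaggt
Idh3g, chrX:156675483-156675732, minus strand: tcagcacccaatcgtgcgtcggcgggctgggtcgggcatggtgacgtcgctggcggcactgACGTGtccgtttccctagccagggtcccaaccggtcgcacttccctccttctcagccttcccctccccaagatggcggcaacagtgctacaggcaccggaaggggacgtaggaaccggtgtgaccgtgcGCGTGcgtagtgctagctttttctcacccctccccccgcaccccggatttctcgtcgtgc
A match of letters does not show a site in use, and the absence of a match says only that the letters are not in this window.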

How the data were processed

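Deposited scanner files gave 1 Cy3 intensity per spot, quantified by the authors with Agilent Feature Extraction 11.5.1.1, which the file headers give as background-subtracted and detrended on the array. A log2 value table was deposited by the authors too; its normalisation and centring are not given in the sources used here. Log2 of the processed intensity minus each array's 75th percentile was used, outlier spots were left out, and a probe was kept if at least 5 of the 19 arrays had it well above background. The probe with the highest mean stood for a gene, which gave 24217 genes from 30259 probes. Of 45598 probes, 21109 were named through their accession in RefSeq, 1977 through another probe and 22512 as in the files.

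One model per gene held the 3 groups, fitted with limma 3.58.1 (lmFit and eBayes) in R 4.3.3, without covariates and with 16 residual degrees of freedom. P-values were two-sided and Benjamini-Hochberg adjusted over all genes of a comparison, at a threshold of 0.05. Scripts were tested on simulated data. The number of arrays limits the precision: over all genes, the SE of a log2 difference had a median of 0.147 between DKD and Sham and 0.135 between the diabetic groups. Alternatives covered the background correction, the normalisation, the filter, probes, slide, row, replicate numbers, the arrays fitted, the value table and each array left out. Same-numbered arrays share a slide, and their deviations from the group means correlated at 0.133 to 0.594. Whether the numbers pair arrays beyond the shared slide was not tested.

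Members and lists were chosen with earlier results of these data known. Besides all 9 members, the text names 9 other subunits, up to 4 genes per list with the smallest adjusted p in any comparison, and the 5 genes most like a member. Slc25a18 and Lipt2 were too dim to test, and Slc25a12 and Sdhaf4 were not analysed here. One gene is not reported here.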

Additional observations from a re-analysis of the deposited data

Results flagged for a closer look

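Suclg1 in DKD replicate 1 stood apart from its group, at a log2 level of 5.618 against 5.404 for the nearest and 5.28 for the lowest DKD array, so that the gap took 0.631 of the range. Of 36 groups of values looked at this was the 1 that stood apart. Chance flags about 1 in 20 of such groups, so 1 of 36 is no more than chance gives.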

How the results depend on the processing

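Without 1 array at a time, genes called ranged from 3147 to 3973 for DKD against Sham, 284 to 508 for DKD+enarodustat against DKD (324 without DKD replicate 3, 284 without replicate 6) and 5155 to 6523 for DKD+enarodustat against Sham. Members called ranged from 0 to 0, 0 to 1 and 1 to 3 (1 without Sham replicate 3 or 4), and their median difference from -0.061 to 0, -0.178 to -0.103 and -0.16 to -0.11. For DKD against Sham, 2 members were called with normexp and quantile normalisation, quantile normalisation and the value table, with medians of -0.113 and -0.132 in the first pair. The median was 0.026 with slide block and row covariate and 0.038 within slide 1, and genes called within slides 1 and 2 were 0 and 2 by limma (4185 and 3649 at an unadjusted p under 0.05). For DKD+enarodustat against DKD, genes called were 511 as reported, 305 with arrays centred on the median, 1775 in the value table, 288 without a filter, 955 with slide as a block, 77 with slide row as a covariate, 245 with both, 1, 0 and 0 within slides 1, 2 and 3, 12 within row 2 and 278 with only the compared groups. Members called were 3 in the value table and 0 without a filter, with the row covariate, with both, within each slide, within row 2 and with only the compared groups. For DKD+enarodustat against Sham, members called were 7, 8 and 9 with normexp and quantile normalisation, quantile normalisation and the value table (medians -0.273, -0.249 and -0.242), and 0 with the row covariate, with both, and within slides 1 and 2. The median was -0.042 with the row covariate and 0.034 with both. Genes called were 10740 without a filter, 1054 with the row covariate, 1479 with both, and 14 and 49 within slides 1 and 2. Suclg1 against Sham reversed in the value table, at -0.138. The cause of these changes was not tested. The replicate block changed no member's call (Idh3a against DKD: -0.31, adjusted p = 0.0213, and against Sham -0.458, 0.000728). Of called genes 47.8%, 51.7% and 39.2% were higher in the 3 comparisons; for DKD against Sham this was 35.6% with normexp and quantile normalisation, 37.8% with quantile normalisation and 38.3% in the value table. It was 34.3% in the value table and 71.2% without a filter for DKD+enarodustat against DKD. For DKD+enarodustat against Sham it was 28.9% with normexp and quantile normalisation and 64.7% without a filter, where the median of all genes shifted to 0.107. Fits with slide block and row covariate, and within row 2, were chosen after seeing the data.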
